A study of Mus musculus with 12 samples.

Results

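The retinal pigment epithelium (RPE), the pigmented layer behind the neural retina, is specified and kept by a small group of transcription factors, and 10 of these were chosen by name: Mitf, Tfec, Otx1, Otx2, Pax6, Lhx2, Tbx2, Tbx3, Nr2f1 and Nr2f2. Their rows were taken from the table by gene symbol, which gave 9 of its 13942 genes, and all 9 passed the filter on low values. Tfec, a close relative of Mitf, was not analysed here beyond its promoter. RNA was sequenced from RPE of C57BL/6J mice in 4 groups of 3 libraries: Sox9 conditional knockout (cKO) at postnatal day 5 (P5), wild type (WT) at P5, cKO at the embryonic stage E15.5 and WT at E15.5. The series asks how loss of SOX9, a transcription factor made in these cells, changes RNA at both ages. Which Cre line was used, which exons it deletes and how RPE was isolated are not stated in what was used here, nor is it said that replicates came from separate animals. P-values therefore measure the spread between these samples, which may be technical.

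MITF is a basic helix-loop-helix leucine zipper protein that binds E-box sequences and switches on melanin genes, and in mice that lack it the presumptive RPE takes on features of neural retina. OTX2 and OTX1 are homeodomain proteins that act with MITF on pigment genes, while PAX6 and LHX2 work earlier, in the eye field and optic vesicle, and stay on in parts of the neural retina. TBX2 and TBX3 are T-box repressors of the dorsal optic cup, and NR2F1 and NR2F2 (COUP-TFI and COUP-TFII) are orphan nuclear receptors, and in mouse eyes that lack both the RPE takes on features of neural retina.

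Otx2 was the member with the largest rise with age and Mitf the factor that defines the lineage, so the promoter windows of these 2 genes that held a searched motif are printed. Each runs from 250 bases before to 50 bases after a RefSeq start site (GRCm38.p6), on the minus strand at chr14:48667595-48667894 and chr14:48665060-48665359 for Otx2 and on the plus strand at chr6:97929567-97929866 for Mitf. Capitals mark the motif, which lies on the opposite strand in all 3 windows, so that CACATG is CATGTG read from the other strand and GGATTA is TAATCC.
Otx2, start site with an E-box: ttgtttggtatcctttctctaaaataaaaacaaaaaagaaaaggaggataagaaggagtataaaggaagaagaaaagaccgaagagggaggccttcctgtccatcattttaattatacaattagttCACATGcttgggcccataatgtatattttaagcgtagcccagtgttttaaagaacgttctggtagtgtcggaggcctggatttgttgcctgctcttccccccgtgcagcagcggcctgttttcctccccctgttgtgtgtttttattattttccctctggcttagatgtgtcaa
Otx2, start site with an OTX-type motif: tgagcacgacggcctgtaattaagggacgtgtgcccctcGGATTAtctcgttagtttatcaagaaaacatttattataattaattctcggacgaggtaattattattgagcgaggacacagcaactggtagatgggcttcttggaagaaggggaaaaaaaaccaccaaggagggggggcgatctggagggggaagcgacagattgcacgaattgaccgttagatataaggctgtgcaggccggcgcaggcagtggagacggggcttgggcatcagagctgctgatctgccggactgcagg
Mitf, start site with an OTX-type motif: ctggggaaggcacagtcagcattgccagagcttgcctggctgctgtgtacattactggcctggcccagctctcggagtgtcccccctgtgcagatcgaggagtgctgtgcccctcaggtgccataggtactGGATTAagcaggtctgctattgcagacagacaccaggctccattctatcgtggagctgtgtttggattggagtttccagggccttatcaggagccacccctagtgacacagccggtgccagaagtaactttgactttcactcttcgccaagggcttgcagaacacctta

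Both strands of 15 windows from 7 of the 10 members were searched for the MITF-type E-boxes CACGTG and CATGTG, the OTX-type motif TAATCC and the SOX motif CATTGT, none of which overlapped another in these windows. Of 4 Otx2 windows, 1 held CATGTG 124 bases before its start site, 1 held TAATCC 211 bases before its start site and 2 held no motif. Of 3 Mitf windows, 1 held TAATCC 119 bases before its start site and 2 held none. The single Nr2f2 window held TAATCC at 233 and at 27 bases before the start site, and the Tfec window held CATTGT 209 bases before it. The windows of Pax6, Lhx2 and Nr2f1 held none of these motifs, and Otx1, Tbx2 and Tbx3 were not searched. Of all 32851 windows of this length, 7.15% held CACGTG, 14.2% CATGTG, 7.06% TAATCC and 12.6% CATTGT, so these matches describe the sequence and show no binding.

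Values are normalised counts. The authors gave the gene counts of all 12 libraries the same distribution, whose median is 367.4 and whose lowest value is 50, called the floor below, so the depth behind a value is unknown. Sox9 itself had 2136, 2384 and 2928 normalised counts in the libraries labelled cKO at P5, against 964, 1499.5 and 1111 in WT at P5, and 1034, 990.0 and 1006 in those labelled cKO at E15.5, against 1156, 1060.3 and 932 in WT at E15.5. The P5 difference (log2 fold change 1.07 ± 0.17 (SE), adjusted p = 0.0316 with limma) goes against the label, and because the deleted exons are not known here, a count over the whole gene cannot check it. Every direction for cKO below is for libraries with that label. The lowest values of the pigment genes Tyr, Dct and Pmel in any of the 12 libraries were 2306, 4013 and 12599, whereas Rpe65, the isomerohydrolase of the visual cycle, was at the floor in both E15.5 groups and in cKO at P5. Across genes, replicate libraries correlated at 0.910 to 0.977 in cKO at P5 and 0.840 to 0.966 in WT at P5, against 0.985 to 0.988 in cKO and 0.990 to 0.993 in WT at E15.5. The 18 photoreceptor markers tested spread widely at P5, with a mean log2 level of 7.17, 10.80 and 9.72 in replicates 1, 2 and 3 of cKO and 7.15, 8.47 and 11.60 in those of WT. Their summed level was 3829.6 to 60511 in cKO and 3785.8 to 119850.0 in WT at P5, against 900.0 to 907 in cKO and 900.3 to 932 in WT at E15.5, and each was above the floor in at least 1 library of each P5 group. The 14 periocular mesenchyme and pericyte markers summed to 292760 to 664110 in cKO and 495290 to 643000 in WT at P5. At E15.5 they summed to 459080 to 528990 in cKO and 355680 to 541860 in WT. The 16 RPE markers tested summed to 141840 to 223960 in cKO and 112840 to 240730 in WT at P5. At E15.5 these gave 28924 to 50616 in cKO and 39398 to 54475 in WT. The mean log2 level of the RPE markers was 8.45 to 8.82 in cKO and 9.1 to 9.42 in WT at E15.5, without overlap. At P5 it was 10.86 to 11.44 in cKO and 10.88 to 12.32 in WT. The parts of mesenchyme and of RPE content in the values of the members were not tested.

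In the libraries labelled cKO, no member passed the test against WT at either age (adjusted p under 0.05, limma with Benjamini-Hochberg adjustment over 13523 genes). At P5 the test called 33 genes, 0.244% of those tested, and at E15.5 it called 1 gene, 0.00739% of those tested. Without adjustment, p was under 0.05 for 1 member, Lhx2, and for 1039 genes at P5, and for 0 members and 49 genes at E15.5. The fit used 1 spread per gene, shared by the 4 groups. Across genes the median log2 SD was 0.116 in cKO and 0.105 in WT at E15.5, against 0.232 and 0.317 at P5. The E15.5 tests therefore carry P5 spread, so few calls there show no lack of difference. With only the 2 groups compared, the SE of the E15.5 genotype difference of Otx2 was 0.13 in place of 0.45. That of Mitf at P5 was 0.53 in place of 0.39, and no member passed at either age. In no member were the 3 cKO libraries all above or all below the 3 WT libraries, at P5 (6.18% of all genes) or at E15.5 (5.1% of all genes). The median log2 fold change of the 9 members was 0.11 at P5, against -0.02 over all genes, and -0.02 at E15.5, against 0.00 over all genes. With age, P5 against E15.5, 4 members passed in cKO (3 rose and 1 fell) and 4 in WT (3 rose and 1 fell), where 43.7% of all genes passed in cKO (17.6% higher and 26.1% lower) and 38.2% in WT (15% higher and 23.2% lower). The P5 and E15.5 libraries did not overlap for 5 members in cKO (4 higher and 1 lower) and 4 in WT (3 higher and 1 lower), against 57.9% of all genes in cKO (23.8% higher and 34.1% lower) and 48.7% in WT (19.3% higher and 29.4% lower). Both member counts are close to these backgrounds, so they are no result about the members, and what follows describes each gene.

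**Figure D1:**
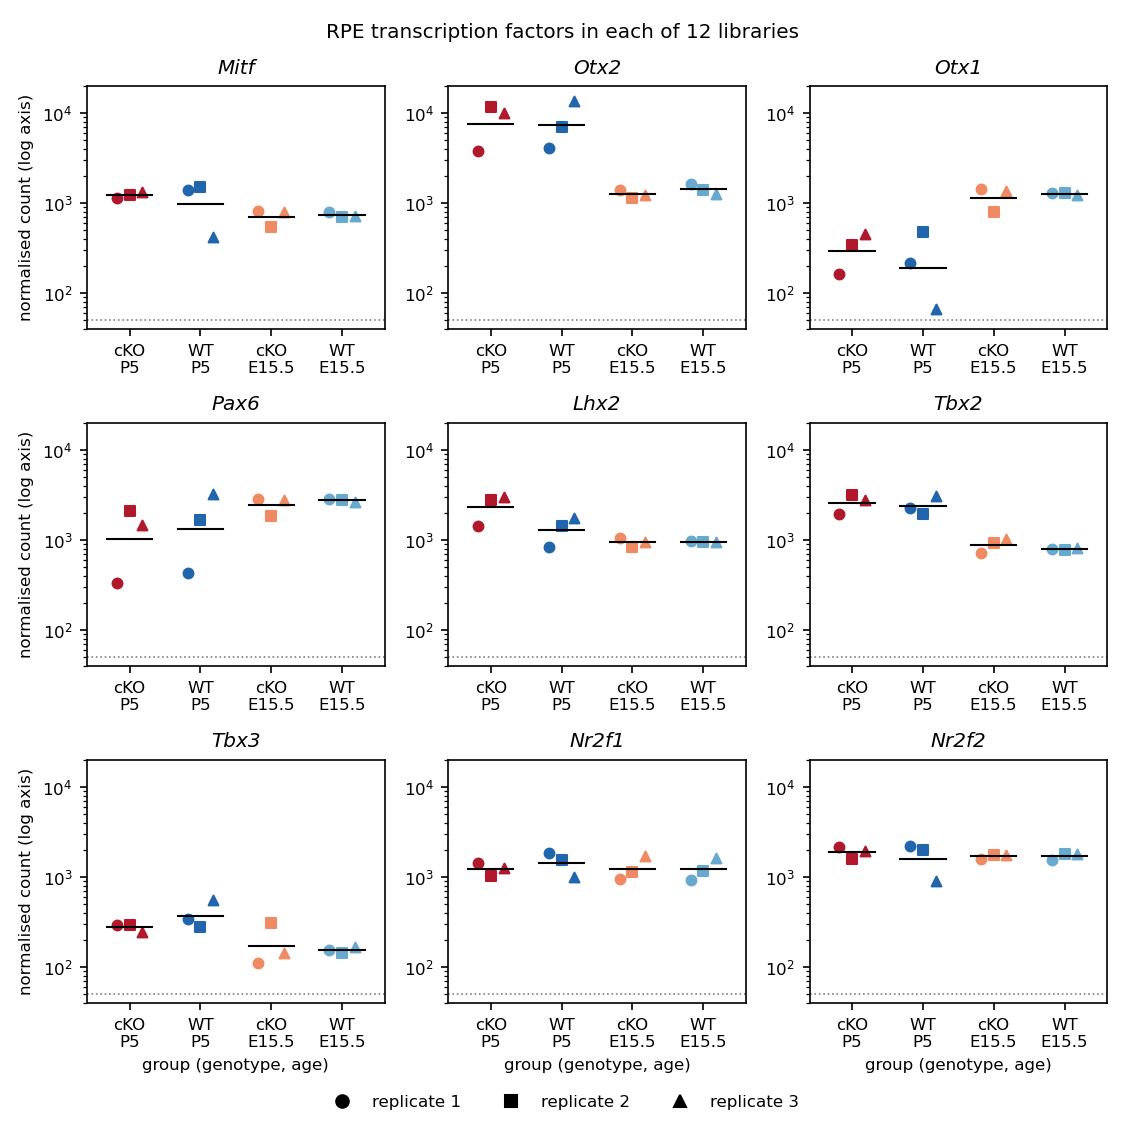
Normalised counts of the 9 members in all 12 libraries on a log axis, by group, with symbols for the replicate number, a black bar at the mean of the log2 values and a dotted line at the floor of 50. Otx2 and Tbx2 lie higher in every P5 library than in any E15.5 library and Otx1 lies lower, while the groups of Nr2f1 and Nr2f2 overlap at both ages.

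MITF's own gene (chr6:97807052-98021349, plus strand, GRCm38 as for all gene positions) passed no test by genotype or age. Mitf had 1145, 1238 and 1343 normalised counts in cKO at P5, against 1412, 1521 and 423 in WT at P5, and 820.0, 541 and 788 in cKO at E15.5, against 803, 693 and 723 in WT at E15.5. Replicate 3 of WT at P5 was the lowest of the 12 libraries, and the other 5 P5 libraries were all above the 6 at E15.5. The log2 fold change of cKO over WT at P5 was 0.35 ± 0.39 (SE, adjusted p = 0.894) and -0.24 without that library, so its direction rests on 1 library. P5 over E15.5 gave 0.81 ± 0.39 in cKO (adjusted p = 0.118), a contrast in which the groups did not overlap and the exact permutation test gave 0.1, its smallest p for 3 libraries against 3. In WT it was 0.39 ± 0.39 (adjusted p = 0.452), and without replicate 3 of WT at P5 it was 0.99 (adjusted p = 0.000895). Leaving out the same library, whose values enter the shared spread, the cKO difference of 0.81 had an adjusted p of 0.00118. With the photoreceptor level as a covariate the age difference was 1.66 in cKO (adjusted p = 0.00726) and 1.20 in WT (adjusted p = 0.0337), and with the lens level it was -0.52 in cKO and -0.17 in WT. The left-out library also had the highest photoreceptor marker level of the 12, 11.60, and the lowest RPE marker level among WT at P5, 10.88 against 12.25 and 12.32. In bulk RNA, fewer cells of a type and less RNA per cell cannot be told apart.

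Otx2 (chr14:48657677-48673819, minus strand), the homeodomain factor of head, photoreceptor and RPE development, rose most of the members. It had 3829, 11579 and 9981 normalised counts in cKO at P5, against 1383, 1153 and 1237 in cKO at E15.5. WT had 4123, 7032 and 13598 at P5, against 1649.9, 1412 and 1249.7 at E15.5. Every P5 library was above every E15.5 library, and the P5 values ranged over 3.02-fold in cKO and 3.30-fold in WT. The rise with age was 6.07-fold in cKO (log2 2.60 ± 0.45, adjusted p = 0.00106) and 5.13-fold in WT (log2 2.36 ± 0.45, adjusted p = 0.00221), and both passed under all 22 alternatives tried. The order of Otx2 among the 6 P5 libraries followed that of the photoreceptor markers, except for the 2 lowest libraries. In those 2, with photoreceptor levels of 7.17 in cKO and 7.15 in WT, Otx2 was 3829 and 4123. The summed photoreceptor level there was 3829.6 in cKO and 3785.8 in WT, above that of the E15.5 libraries. With the photoreceptor level as a covariate the age difference was 1.16 in cKO and 0.99 in WT on the log2 scale, and it passed in both; the part of photoreceptor RNA in the rise was not tested beyond this fit. At E15.5, 16 of the 18 photoreceptor markers in cKO and 15 in WT were at the floor in each library, so this covariate varies almost only with age and within P5. The log2 difference of cKO minus WT was 0.06 ± 0.45 at P5 (adjusted p = 1) with a 95% confidence interval of -0.93 to 1.04, and -0.19 ± 0.45 at E15.5. Exons of Otx2 overlap an antisense transcript, Otx2os1, by 154 bases and a same-strand gene, Gm49154, by 168 bases. Reads of Otx2 and Otx2os1 cannot be told apart without the strand setting, which is not known here. The strand would not separate reads of Otx2 and Gm49154.

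Otx1 (chr11:21994764-22002897, minus strand), its paralog, moved the other way. In cKO it had 163, 346 and 456 normalised counts at P5, against 1431, 792 and 1359 at E15.5. In WT it had 219, 478 and 66.2 at P5, against 1281, 1309.8 and 1227 at E15.5. No P5 library reached the E15.5 range in either genotype. Otx1 fell 3.90-fold in cKO (log2 -1.96 ± 0.60, adjusted p = 0.0227) and 6.63-fold in WT (log2 -2.73 ± 0.60, adjusted p = 0.00516). The WT call held in all 22 alternatives, whereas the cKO call was lost when any of 3 libraries was left out: -1.81 (adjusted p = 0.0717) without replicate 1 of E15.5, -1.85 (0.0709) without replicate 3 of E15.5 and -1.54 (0.0738) without replicate 1 of P5. It was also lost with the photoreceptor level as a covariate (-1.44, adjusted p = 0.158), whereas the lens level gave -4.04 (adjusted p = 0.00151). The genotype difference at P5 was 0.63 ± 0.60 (adjusted p = 0.869) and -0.13 without replicate 3 of WT at P5. No interaction passed for any of the 9 members, where 0.0592% of all genes passed (unadjusted p under 0.05 for 0 members and 358 genes), and for Otx1 the interaction, the age change in cKO less that in WT, was 0.77 ± 0.85 (adjusted p = 1).

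Of the members that work in both the optic vesicle and the neural retina, Pax6 passed no test by genotype or age without a covariate or library weights and Lhx2 rose with age in cKO. Pax6 (chr2:105668900-105697364, plus strand) had 335, 2131 and 1486 normalised counts in cKO at P5, against 435, 1685 and 3229 in WT at P5, and 2863, 1861 and 2775 in cKO at E15.5, against 2835, 2777 and 2662 in WT at E15.5. The lowest P5 value in each genotype lay in replicate 1, and the ages overlapped. P5 minus E15.5 was -1.27 ± 0.74 in cKO (adjusted p = 0.187) and -1.05 ± 0.74 in WT (adjusted p = 0.283), values that did not pass. With the photoreceptor level as a covariate they were -3.59 (adjusted p = 3.67e-05) in cKO and -3.25 (adjusted p = 5.74e-05) in WT. Without replicate 1 of P5 in the same genotype the difference was -0.46 in cKO and -0.24 in WT, and library weights gave -0.84 in WT (adjusted p = 0.0239). Pax6 had the largest SD on the log2 scale of the 9 members at P5, 1.41 in cKO and 1.47 in WT, where the medians over all genes were 0.23 and 0.32. Within each genotype its P5 values followed the order of the 15 inner retinal neuron markers tested, whose summed level was 2587 to 10694 in cKO and 3115 to 20008 in WT and whose mean log2 level was 6.57, 8.96 and 8.20 in cKO replicates 1, 2 and 3 and 6.72, 7.44 and 9.69 in those of WT at P5. The photoreceptor markers had the same order within each genotype at P5, and so did the 11 retinal progenitor markers. The mean log2 level of the progenitor markers was 6.57, 7.75 and 7.52 in cKO and 6.46, 7.42 and 9.0 in WT. The order is therefore not particular to inner retinal neurons. PAX6 is a known factor of amacrine and ganglion cells, and the part of these or of other retinal cells in the values was not tested.

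Lhx2 (chr2:38339281-38369733, plus strand), a LIM-homeodomain factor of the optic vesicle, was the member with the lowest unadjusted p for genotype. It had 1430, 2824 and 3033 normalised counts in cKO at P5, against 831, 1448 and 1766 in WT at P5, and 1068, 843 and 943 in cKO at E15.5, against 970.0, 944 and 963 in WT at E15.5. The P5 groups overlapped, since replicate 1 of cKO lay below the upper 2 WT libraries. The log2 fold change of cKO over WT at P5 was 0.84 ± 0.30 with a 95% confidence interval of 0.17 to 1.51 (adjusted p = 0.513, exact permutation p = 0.3), and over the 22 alternatives it was 0.53 to 1.19. It passed in 1 of them, with the photoreceptor level as a covariate (0.80, adjusted p = 0.0302). Among the 2 P5 libraries with the lowest photoreceptor level, cKO had 1430 and WT 831. The 11 lens markers tested had a mean log2 level of 8.05 to 8.99 and a summed level of 5266 to 10287 in cKO at P5, against 5.83 to 8.5 and 631 to 6105 in WT at P5, and none was at the floor in all 3 libraries of either group. Their part in the genotype difference of Lhx2 was not tested beyond the covariate fit, which gave 0.90 on the log2 scale (adjusted p = 0.633). Lhx2 rose 2.43-fold with age in cKO (log2 1.28 ± 0.30, adjusted p = 0.00655), and the call was lost in 2 alternatives: with the photoreceptor level the difference was 0.40 (adjusted p = 0.148), and with the lens level it was 1.38 with a wider error (SE 0.51, adjusted p = 0.076). In WT the age difference was 0.42 ± 0.30 (adjusted p = 0.294) and -0.42 with the photoreceptor level, and library weights gave 0.55 (adjusted p = 0.00205). The interaction of 0.86 ± 0.43 did not pass (adjusted p = 1), so the age difference of Lhx2 is not shown to differ between genotypes.

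**Figure D2:**
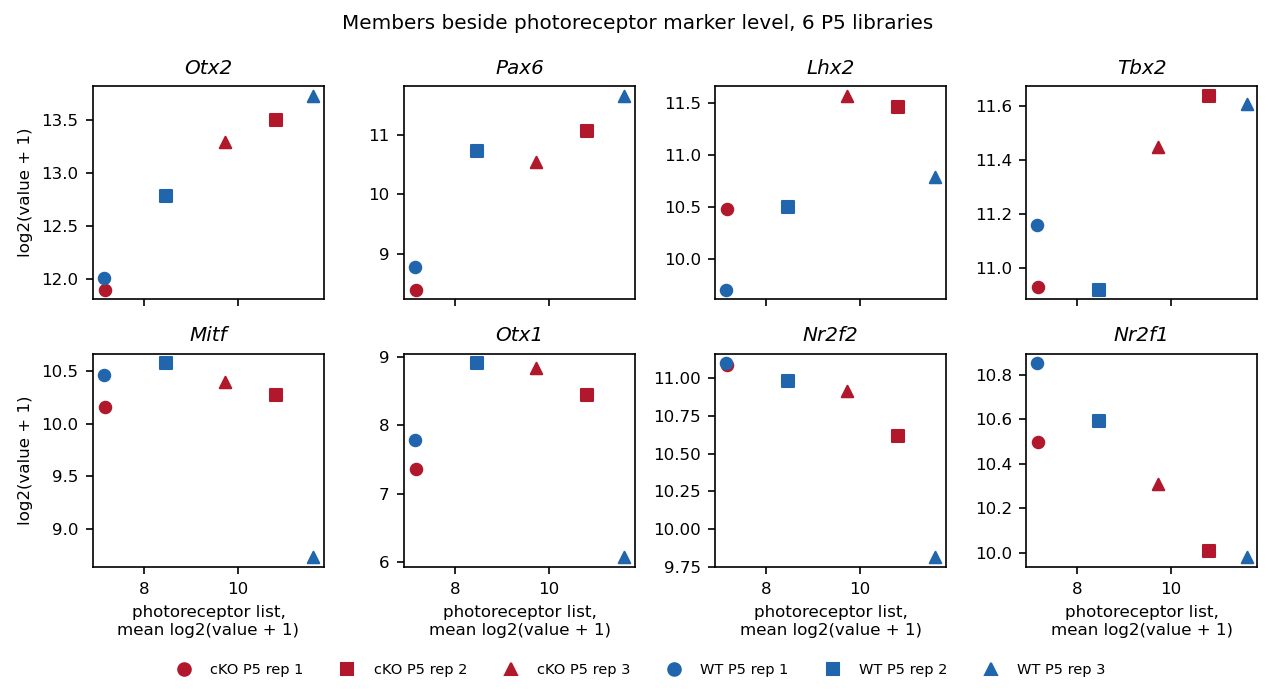
log2(value + 1) of 8 members in the 6 P5 libraries (y axis, own range in each panel) against the mean log2 level of 18 photoreceptor markers (x axis), with colour for genotype and symbol for replicate. The library with the highest marker level is the highest for Otx2 and Pax6 and the lowest for Nr2f1 and Nr2f2, and Mitf and Otx1 are lowest in the WT library at 11.60.

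Of the T-box genes, Tbx2 rose in both genotypes and Tbx3 in WT. Tbx2 (chr11:85832551-85841948, plus strand), a repressor that patterns the dorsal optic cup, had 1957, 3198 and 2801 normalised counts in cKO at P5, against 712, 939.6 and 1041 in cKO at E15.5. In WT it had 2286, 1940 and 3123 at P5, against 804, 767 and 820.0 at E15.5. The 6 P5 libraries were all above the 6 at E15.5. The rise was 2.93-fold in cKO (log2 1.55 ± 0.22, adjusted p = 0.000322) and 3.01-fold in WT (log2 1.59 ± 0.22, adjusted p = 0.000327), and it passed under all 22 alternatives in each genotype. cKO and WT differed by 0.11 ± 0.22 on the log2 scale at P5, with a 95% confidence interval of -0.37 to 0.59, and by 0.15 ± 0.22 at E15.5.

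Tbx3 (chr5:119670669-119684724, plus strand), the other T-box repressor, was the lowest of the members at E15.5 per exon length. It had 293, 297 and 246 normalised counts in cKO at P5, against 112, 313 and 144 in cKO at E15.5, where replicate 2 reached the P5 range. WT had 339, 278 and 554 at P5, against 157, 142 and 168 at E15.5, with no overlap. Tbx3 rose 2.40-fold in WT (log2 1.26 ± 0.35, adjusted p = 0.0161), and without replicate 2 of WT at E15.5 the call was lost (1.20, adjusted p = 0.054), as it was with the photoreceptor level (0.90, adjusted p = 0.118). In cKO the difference was 0.69 ± 0.35 (adjusted p = 0.132), and without replicate 2 of cKO at E15.5 it was 1.12 (adjusted p = 0.0121), and with the lens level as a covariate 1.56 (adjusted p = 0.0386). Surface ectoderm markers were also highest in that cKO library, with a mean log2 level of 10.83 against 9.49 to 9.98 in the other cKO libraries at E15.5. The genotype difference of Tbx3 at P5 was -0.43 ± 0.35, and the interaction was -0.57 ± 0.49. Tbx3 overlaps the antisense gene Tbx3os1 by 115 exonic bases.

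Neither COUP-TF gene was called for genotype or age. Nr2f1 (chr13:78188973-78199757, minus strand) had 1443, 1032 and 1269 normalised counts in cKO at P5, against 1841, 1535 and 1008 in WT at P5, and 954, 1125 and 1717 in cKO at E15.5, against 929, 1164 and 1645 in WT at E15.5. At E15.5 replicate 3 was the highest in both genotypes. No difference passed: P5 minus E15.5 was 0.01 ± 0.29 in cKO and 0.23 ± 0.29 in WT, and cKO minus WT was -0.20 ± 0.29 at P5 and 0.02 ± 0.29 at E15.5. The 95% confidence interval of the P5 genotype difference was -0.83 to 0.44. Exons of Nr2f1 overlap the antisense gene A830082K12Rik by 123 bases.

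Nr2f2 (chr7:70351944-70366735, minus strand) had 2178, 1578 and 1933 normalised counts in cKO at P5, against 2201, 2017 and 894 in WT at P5, and 1584, 1746 and 1774 in cKO at E15.5, against 1542, 1806 and 1817 in WT at E15.5. Replicate 3 of WT at P5 was the lowest of the 12, and the other 11 lay between 1542 and 2201. The age difference was 0.15 ± 0.28 in cKO and -0.12 ± 0.28 in WT and the WT value was 0.30 without replicate 3 of WT at P5. cKO minus WT at P5 was 0.25 ± 0.28 and -0.16 without that library. Among the 3 P5 libraries of each genotype, Nr2f2 was lower the higher the photoreceptor level, and so was Nr2f1. With that level as a covariate, the age difference of Nr2f2 was 0.97 in cKO (adjusted p = 0.00199) and 0.66 in WT (adjusted p = 0.0151), and with the lens level it was -0.63 in cKO. B130024G19Rik, an antisense transcript, shares 643 exonic bases with Nr2f2.

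**Figure D3:**
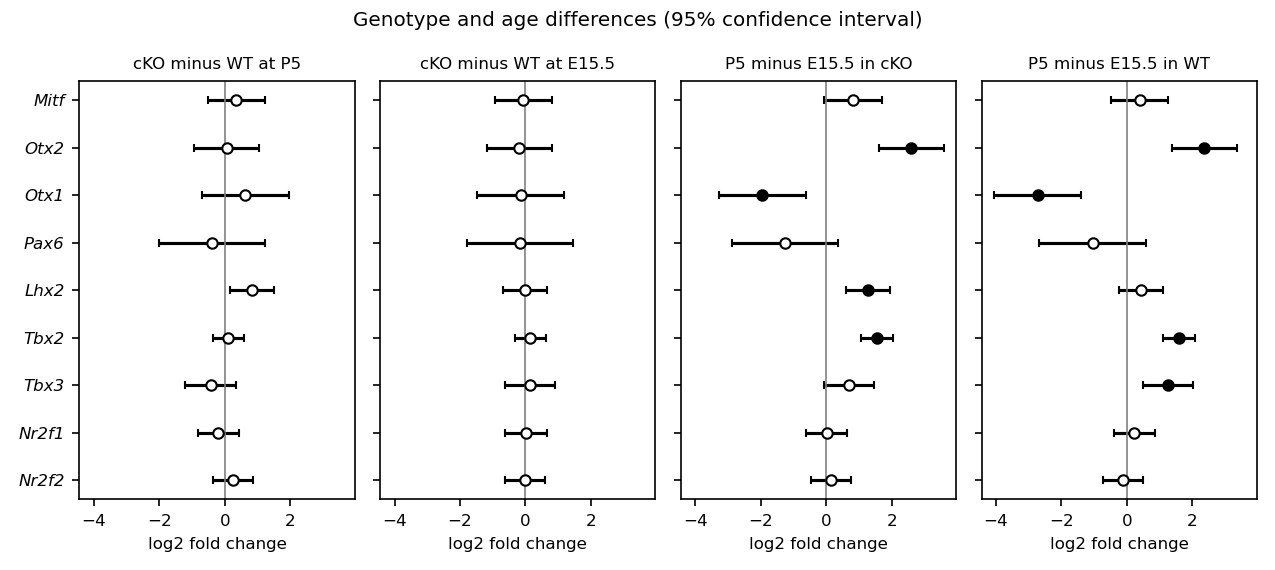
Log2 fold changes of the 9 members with 95% confidence intervals for genotype at P5 and at E15.5 and for age in cKO and in WT; filled points passed the test. Only age panels hold filled points, Otx2 and Tbx2 above 0 and Otx1 below 0 in both, Lhx2 in cKO and Tbx3 in WT.

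Per kilobase of union exon length, Otx2 had the highest mean of the members in all 4 groups, but at E15.5 its libraries overlapped those of Nr2f1, the next gene, in both genotypes. Union exon length covers every annotated exon of a gene, and which transcripts were made is not known here. The order of genes therefore depends on this length, 11.694 kb for Pax6 and 4.221 kb for Otx2. Undivided, Pax6 averaged 2499 in cKO and 2758 in WT at E15.5, above Otx2 at 1258 and 1437. The level of Otx2 was 2005 ± 969 normalised counts per kb in cKO at P5 and 1955 ± 1149.9 in WT at P5, against 298 ± 27.6 in cKO and 340 ± 47.7 in WT at E15.5 (SD, n = 3). At P5 it stood above Tbx2, the next gene, at 731 ± 175 in cKO and 676 ± 168 in WT, with no overlap between the 2 genes in either genotype. Lhx2 followed, at 553 ± 198 in cKO and 307 ± 108 in WT; its libraries overlapped those of Tbx2 in cKO but not in WT. At E15.5 the first 7 genes of the order in cKO, Otx2 to Nr2f2, each overlapped the next, whereas Mitf and Tbx3 stood below them without overlap, at 116 ± 24.6 and 28.6 ± 16.3. In WT at E15.5 the order again ended with Mitf, 119 ± 9.17, and Tbx3, 23.5 ± 1.94. At P5 the lowest gene was Tbx3 in cKO, 42.1 ± 4.25, and Otx1 in WT, 46.9 ± 38.4, and each overlapped the gene above it.

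**Figure D4:**
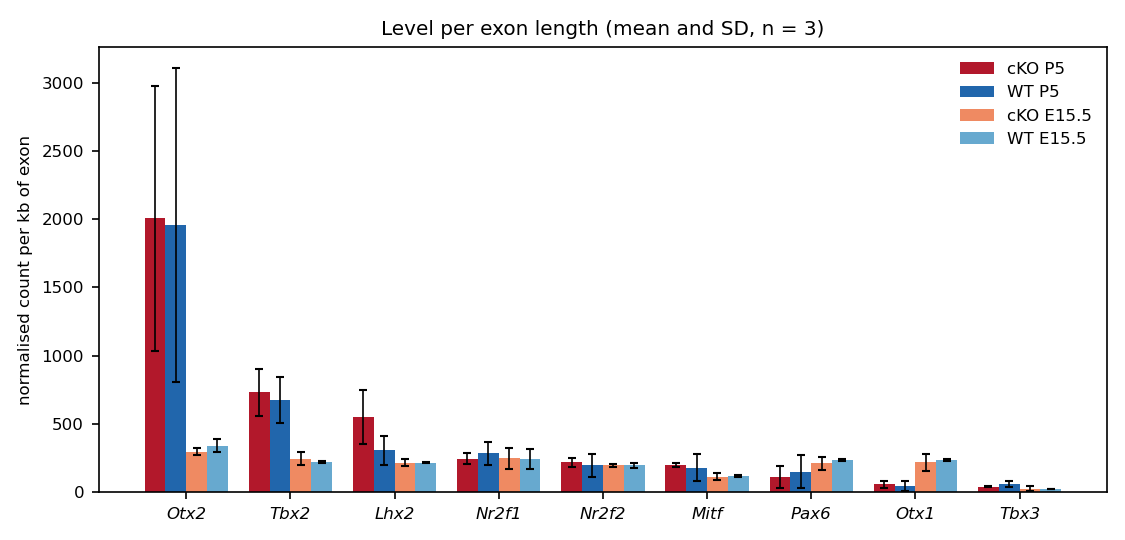
Mean normalised count per kb of exon for the 9 members in the 4 groups, with SD as error bars (n = 3). Otx2 has the highest mean in each group, at 2005 in cKO and 1955 in WT at P5 and at 298 in cKO and 340 in WT at E15.5, and Tbx3 is the lowest except in WT at P5.

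Pigment genes with known MITF control rose with age or did not pass, in both genotypes, and were not called for genotype. Of 12 tested, 8 rose in cKO and 6 in WT and none fell, where 17.6% of all genes rose in cKO and 15% in WT, with a median log2 fold change of 1.27 in cKO and 1.12 in WT against -0.08 and -0.07 over all genes. Dct, the tautomerase of melanin synthesis, averaged 28651 ± 1889 in cKO at P5 against 5142 ± 977 in cKO at E15.5 (SD, n = 3), a log2 fold change of 2.50 ± 0.30, and 2.11 ± 0.30 in WT. Tyrp1, a melanosomal enzyme, rose by 2.0 ± 0.43 in cKO and 2.13 ± 0.43 in WT. The genotype medians were 0.01 at P5 and -0.12 at E15.5. Most of these pigment genes, among them Dct and Tyrp1, are also on the RPE marker list. Of 16 RPE markers tested, 13 rose with age in cKO and 14 in WT, with medians of 1.77 and 2.16. The part of RPE content in the rise of the pigment genes was not tested.

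Lysosome genes with known control by MITF relatives gave a similar count. Of 17 tested, 10 rose and 1 fell in cKO, and 10 rose and 0 fell in WT, with a median of 0.61 in each, against 17.6% of all genes that rose in cKO and 15% in WT and medians of -0.08 and -0.07. Ctsd, a lysosomal protease, rose by 1.71 ± 0.25 in cKO and 1.29 ± 0.25 in WT, and Neu1, a sialidase, rose by 1.07 ± 0.15 in cKO and 1.05 ± 0.15 in WT. None of the 17 was called for genotype. Of the 4 close relatives of the members tested, Tfeb, a lysosomal regulator of the MITF family, rose by 2.04 ± 0.26 in cKO and 1.67 ± 0.26 in WT, and Crx, an OTX-family factor of photoreceptors, was at the floor in cKO at E15.5 and averaged 2684 ± 2398 in cKO at P5 and 6069 ± 8933 in WT at P5. Tfe3 and Nr2f6 did not pass in either contrast.

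Neural retina and optic stalk regulators were mostly uncalled. Of 7 tested, 2 rose with age in cKO and 1 in WT, where 17.6% of all genes rose in cKO and 15% in WT, so the share is near that of all genes. Six3, an eye-field homeodomain factor, averaged 3074 ± 931 in cKO at P5 against 949 ± 30.7 in cKO at E15.5 (log2 1.64 ± 0.29, adjusted p = 0.00136) and rose by 1.31 ± 0.29 in WT. The list median for genotype was -0.73 at E15.5 and 0.08 at P5, and none of the 7 was called. The 11 retinal progenitor markers had a median of -1.04 at E15.5, with a mean log2 level of 6.91 to 6.99 and a summed level of 2029.8 to 2404 in cKO, against 7.32 to 8.03 and 2505 to 3961 in WT. Hes5 was at the floor in all 3 cKO libraries, no progenitor marker was called, and their part in the list median was not tested.

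Genes of the signals that specify RPE, mostly of the Wnt, Hippo and BMP pathways, fell with age more often than they rose. Of 12 tested, 7 fell and 1 rose in cKO and 8 fell and 1 rose in WT, with medians of -0.56 in cKO and -0.66 in WT. Over all genes 26.1% fell and 17.6% rose in cKO and 23.2% fell and 15% rose in WT, with medians of -0.08 and -0.07. Of 6 surface ectoderm markers tested, 4 also fell in each genotype and 1 rose in cKO (medians -3.41 in cKO and -3.19 in WT), and of 12 endothelium markers 9 rose in cKO and 12 in WT, and their part in these values was not tested. Tead2, a Hippo pathway factor, averaged 1067 ± 72.2 in cKO at P5 against 3192 ± 214 in cKO at E15.5 (log2 -1.58 ± 0.12) and fell by 1.51 in WT. Axin2, a Wnt feedback gene, fell by 1.0 in cKO and fell by 1.44 in WT, and Lef1, a nuclear partner of beta-catenin, fell by 0.95 in cKO and fell by 1.86 in WT. Bmp4 rose by 1.29 ± 0.32 in cKO and 1.14 ± 0.32 in WT. No gene of the list was called for genotype; Lef1 had the largest P5 difference, 1.02 ± 0.28 (adjusted p = 0.318).

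The genes with the profile nearest to a member were found by the root mean square difference of centred log2 values over the 12 libraries, where a smaller number is closer. For Mitf these were Stra6, the receptor for retinol-binding protein, at 0.160, Dock5 at 0.163 and Slc2a4 at 0.195, beside a spread of Mitf itself of 0.555. Otx2 was nearest to Stx3, at 0.231, a syntaxin, to Fam161a, at 0.254, and to Fam222a, at 0.272, beside a spread of 1.342. Otx1 was nearest to Slc38a8, at 0.328, Krt7, at 0.485, and Igf2bp1, at 0.505. Pax6 was nearest to Ly6h, at 0.320, Ctnnd2, at 0.368, and Meis1, at 0.382. The nearest genes of Lhx2 were Tubb4a, Adck4 and Rnf208 (0.211 to 0.225) and those of Tbx2 were Mamld1, Hcn2 and Tecpr1 (0.162 to 0.181). The nearest genes of Tbx3 were Plekha2, Arrb1 and Rnf144b (0.252 to 0.308), of Nr2f1 Lamtor1, Nudt12 and Sipa1 (0.205 to 0.214) and of Nr2f2 Agpat2, Gas2l1 and Acsf2 (0.106 to 0.119). These values come from the same 12 libraries, in which the photoreceptor and lens marker levels also varied.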

How the data were processed

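RNA was measured in 12 libraries, 3 in each of 4 groups of genotype and age. The submitters' processing notes name TopHat2 2.0.10, HTSeq and the mm10 genome. Each deposited value is a signal, namely the count of a gene that the authors quantile-normalised and raised to at least 50, per the table's name. All 12 columns held the same sorted values, and 9.87% of each lay at the floor. Depth, annotation release and strand setting are not stated in what was used here, so no counting error could be attached. The 13523 genes above the floor in at least 3 libraries were tested as log2(value + 1) with limma 3.58.1 in R 4.3.3 (1 mean per group, eBayes with a trend, two-sided), and p-values were adjusted over them by the Benjamini-Hochberg method. Fold changes are on that scale and understate changes near the floor. For single members an exact two-sided permutation test was added. Positions and exon lengths came from GENCODE M21 (GRCm38), in which 13927 of the 13942 genes were found. The model was also run on simulated data with independent noise and 1 spread per gene for all groups. That run does not cover the wider spread of the P5 libraries. Alternatives were other pseudocounts and filters, no trend, library weights, only the 2 groups compared, a replicate block, the photoreceptor or lens marker level as a covariate and each library left out. The rule for named genes took every member, Sox9, genes of each list called for genotype or else up to 4 with the largest change, and the 3 nearest genes per member. Of the list genes a part is printed, chosen after their values were seen, and 1 is left out as not reported here. The members and lists were chosen with earlier results of these data known.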

Additional observations from a re-analysis of the deposited data

How the results depend on the processing

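Quantile normalisation sets each library to 1 distribution, and with 3 libraries a group and an unknown depth small differences could not be resolved. Of the member fold changes, 497 of the values with 1 library left out kept their direction and their side of the threshold, 36 changed sign, 3 passed only then and 4 no longer passed. Under the other alternatives 400 kept both, 26 changed sign, 11 kept their sign and passed only then, and 4 no longer passed; 1 of those that changed sign, the age change of Nr2f2 in WT with the photoreceptor level, also passed only then (0.66, adjusted p = 0.0151). None of the fold changes that changed sign had passed in the reported test. The cause of the changes below was not tested.

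The number of genes called for cKO minus WT at P5 was 33, and it was 19 with values above the floor in at least 6 libraries, 59 with library weights (27 higher and 32 lower, against 27 and 6), 34 with the lens level (13 higher and 21 lower), 2 with only the libraries of the 2 groups and 201 with the photoreceptor level (124 higher and 77 lower). At E15.5 it was 1, and 3 with the lens level and 14 with library weights. With age it was 5905 in cKO and 3051 with the lens level, and 5171 in WT and 9606 with library weights. For the interaction it was 8, and 5 with the lens level and 32 with library weights. The members called were 1 in place of 0 for genotype at P5 with the photoreceptor level, and 7 in place of 4 for age in WT with library weights, whose estimate stopped before it converged. With 1 library left out, genes called ranged from 12 (without replicate 3 of cKO at P5) to 132 (without replicate 1 of cKO at P5) for genotype at P5, from 1 to 4 at E15.5 and from 4 to 24 for the interaction, from 4404 to 7277 for age in cKO and from 3639 to 6483 in WT. Members called for age ranged from 3 to 5 in each genotype.

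For the replicate block, the correlations of the deviations of same-numbered libraries from their group means ran from -0.336 to 0.783 (the highest for replicate 1 of cKO and WT at P5), so not every pair deviated together, and 5 of 12 libraries correlated best with their own number in the other genotype. The numbers were therefore not used as pairs. The block gave 18 genes for genotype at P5 in place of 33 and changed no call of a member.

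Log2 fold changes that reversed were as follows. For cKO minus WT at P5 the lens level gave -0.45 for Mitf, -0.63 for Otx1, 0.10 for Tbx3 and -0.22 for Nr2f2, library weights gave -0.29, -0.68, 0.04 and -0.17 for the same genes, and the photoreceptor level gave -0.01 for Otx2. For age in cKO the lens level gave -0.52 for Mitf, -0.25 for Nr2f1 and -0.63 for Nr2f2, and library weights gave -0.03 for Nr2f1. For age in WT the lens level gave -0.17 for Mitf, the photoreceptor level -0.42 for Lhx2 and 0.66 for Nr2f2, and library weights 0.21 for Nr2f2. For the interaction the lens level gave -0.35 for Mitf, -0.44 for Otx1, 0.15 for Pax6, 0.28 for Tbx2 and -0.19 for Nr2f2, and library weights gave -0.11 for Mitf, -0.33 for Otx1, 0.24 for Tbx2 and -0.16 for Nr2f2.

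With 1 library left out, the fold changes that reversed ranged as follows. For cKO minus WT at E15.5 they ran from -0.18 to 0.12 for Mitf, -0.29 to 0.13 for Otx1, -0.28 to 0.03 for Pax6, -0.11 to 0.07 for Lhx2, -0.29 to 0.45 for Tbx3, -0.23 to 0.24 for Nr2f1 and -0.09 to 0.04 for Nr2f2. For cKO minus WT at P5 they ran from -0.24 to 0.68 for Mitf, -0.13 to 1.29 for Otx1, -0.36 to 0.55 for Otx2, -1.19 to 0.42 for Pax6, -0.04 to 0.32 for Tbx2 and -0.16 to 0.48 for Nr2f2. For age they ran from -0.17 to 0.25 for Nr2f1 in cKO and from -0.35 to 0.30 for Nr2f2 in WT. For the interaction they ran from -0.17 to 0.75 for Mitf, -0.17 to 0.74 for Otx2, -1.02 to 0.58 for Pax6, -0.20 to 0.16 for Tbx2, -0.46 to 0.03 for Nr2f1 and -0.15 to 0.50 for Nr2f2.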

Other observations

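At E15.5, replicate 2 of cKO was the lowest cKO library for Mitf (541 normalised counts), Otx1 (792), Pax6 (1861), Otx2 (1153) and Lhx2 (843) and the highest for Tbx3 (313). Its mean log2 level of surface ectoderm markers was 10.83, and its RPE marker level was 8.45, against 8.79 and 8.82 in the other 2 cKO libraries. In WT at E15.5 the log2 SD of Lhx2, Otx1, Pax6 and Tbx2 was 0.02 to 0.05, where the median over all genes was 0.11. The other members lay at or above that median, from 0.11 for Mitf to 0.42 for Nr2f1.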
